A study of Mus musculus with 24 samples.

Results

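The genes that write, read and erase DNA methylation were followed in the mRNA of mouse nucleus accumbens (NAc), a reward region of the ventral striatum, after stress in males and females. The group held 9 genes chosen by name from the 38293 genes of the count table: the DNA methyltransferases Dnmt1, Dnmt3a and Dnmt3b, the TET dioxygenases Tet1, Tet2 and Tet3, the readers Uhrf1 and Uhrf2, and Gadd45b. All 9 were found in the table and all 9 passed the filter on low counts, which left 18593 genes for testing. The rule names the genes and sets no threshold on a measured value. C57BL/6J mice, 9 weeks old by the labels, were exposed to subchronic variable stress (SCVS; foot shock, tail suspension and restraint in turn over 6 days) or left in the home cage, and tissue was taken 24 h after the last stressor. The 4 groups were unstressed males (NSM), stressed males (SM), unstressed females (NSF) and stressed females (SF), with 3 mRNA libraries in each. Each library was made from 10 punches pooled from 5 mice, so that the spread between libraries is a spread between pools, and all female pools came from mice in estrus or proestrus. The labels give no transgene or deletion.

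DNA methyltransferases place methyl groups on cytosine. Dnmt1 copies the pattern onto the new strand after replication, to which Uhrf1 brings it by binding half-methylated DNA, and Dnmt3a and Dnmt3b set new marks. TET enzymes oxidise 5-methylcytosine to 5-hydroxymethylcytosine and further, the products are removed by base excision repair, and Gadd45b is an activity-induced protein linked to that removal. In adult brain most cells no longer divide, 5-hydroxymethylcytosine is abundant, Dnmt3a is the main enzyme of new methylation in neurons, and Uhrf2, a close relative of Uhrf1, binds 5-hydroxymethylcytosine.

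On NCBIM37, the build of the deposited counts, the methyltransferase genes are Dnmt1 (ENSMUSG00000004099, chr9:20711650-20757317, minus strand), Dnmt3a (ENSMUSG00000020661, chr12:3806007-3914443, plus strand) and Dnmt3b (ENSMUSG00000027478, chr2:153475186-153513466, plus strand). The TET genes are Tet1 (ENSMUSG00000047146, chr10:62267318-62361866, minus strand), Tet2 (ENSMUSG00000040943, chr3:133126643-133207354, minus strand) and Tet3 (ENSMUSG00000034832, chr6:83312367-83391672, minus strand). The others are Uhrf1 (ENSMUSG00000001228, chr17:56442744-56462909, plus strand), Uhrf2 (ENSMUSG00000024817, chr19:30105003-30168212, plus strand) and Gadd45b (ENSMUSG00000015312, chr10:80392836-80394949, plus strand). Counts were summed over exons. Dnmt3a alone shares exon bases with another gene, 133 of them with the antisense transcript Gm10485, and since the library kit does not mark strand, reads there cannot be told apart.

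The promoters of the 2 genes whose levels differed most clearly between groups are shown first, from RefSeq sequence on GRCm38.p6, each running from 250 bases before to 50 bases after the annotated start. In the Uhrf2 promoter, at chr19:30030263-30030562 on the plus strand, the capitals mark CTCGCGAG, the core of the palindrome bound by the factor BANP. In the Gadd45b promoter, at chr10:80929841-80930140 on the plus strand, the capitals mark an E-box CACGTG and 2 CCAAT boxes.
Uhrf2: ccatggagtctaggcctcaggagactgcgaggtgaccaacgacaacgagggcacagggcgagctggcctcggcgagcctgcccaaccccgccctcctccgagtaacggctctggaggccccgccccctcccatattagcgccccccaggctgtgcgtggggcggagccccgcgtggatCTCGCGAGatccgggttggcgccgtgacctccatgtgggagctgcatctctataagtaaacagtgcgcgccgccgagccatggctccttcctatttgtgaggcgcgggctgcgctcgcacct
Gadd45b: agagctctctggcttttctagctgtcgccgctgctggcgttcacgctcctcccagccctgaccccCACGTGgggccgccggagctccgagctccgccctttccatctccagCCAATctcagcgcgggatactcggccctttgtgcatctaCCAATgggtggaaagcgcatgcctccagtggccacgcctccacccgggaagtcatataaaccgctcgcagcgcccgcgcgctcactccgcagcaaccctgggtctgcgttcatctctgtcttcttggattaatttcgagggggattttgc
Both strands were searched for 4 motifs in the 14 promoters that RefSeq lists for the 9 genes. CTCGCGAG lay 72 bases before the start in Uhrf2 and in no other of the 14, and 0.919% of all 32851 mouse promoters held it. CACGTG lay in the Gadd45b promoter and in 1 of the 3 Dnmt3a promoters, and 7.15% of all promoters held it. CCAAT was found in 2 of the 3 Dnmt1 promoters, in each of the 2 Uhrf1 promoters and in those of Tet3 and Gadd45b. Counted by promoter, 37.4% of all promoters held it. The cAMP response element TGACGTCA was in none of the 14, against 1.79% of all promoters. The members' own promoters were rich in CpG, the dinucleotide that these enzymes act on. Their median was 26 CpG in 300 bases against 7 over all promoters, and the Tet2 promoter, with 57, exceeded 99.8% of them. The lowest were 2 of the 3 Dnmt1 promoters, with 12 and 2, and 1 of the 2 Uhrf1 promoters, with 12.

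The second set of sequences concerns miR-29 and the miR-148 family, which are textbook repressors of these enzymes and were read in the small RNA of the same study. The mature forms, from RefSeq, are given with the seed (bases 2 to 8) in capitals, since the seed is the part that pairs with a target.
miR-29a-3p: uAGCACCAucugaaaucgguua
miR-29b-3p: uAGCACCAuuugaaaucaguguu
miR-29c-3p: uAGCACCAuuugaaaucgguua
miR-148a-3p: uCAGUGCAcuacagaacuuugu
miR-148b-3p: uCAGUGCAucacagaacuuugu
miR-152-3p: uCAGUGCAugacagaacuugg
The 6 forms share 2 seeds. The longest annotated 3′ untranslated region of each member was searched for the reverse complement of each seed. The miR-29 site TGGTGCT was present 5 times in Dnmt3a, 1 time in Dnmt3b, 7 times in Tet1, 5 times in Tet2 and 8 times in Tet3. It was absent from those regions of Dnmt1, Uhrf1, Uhrf2 and Gadd45b. Over all 20007 genes with such a region, 12.4% held the site. Among regions of like length (0.8 to 1.25 times the member's), as many sites were held by 1.62% for Dnmt3a, 0.637% for Tet1, 0.0953% for Tet2 and 0.195% for Tet3, while 12.5% held as many as Dnmt3b. The site TGCACTG of the miR-148 family was present 1 time each in Dnmt1 and Uhrf1 and in no other member, against 12.3% of all genes. Among regions of like length it was held by 3.27% for Dnmt1 and 10.7% for Uhrf1. For the members without it, that share ran from 6.65% (Gadd45b) to 47.1% (Tet1). Examples are shown on NCBIM37 with their flanks, the seed match in capitals. Those of miR-29 are from Dnmt3a (chr12:3908561-3908589, plus strand), Tet3 (chr6:83317968-83317996, minus strand) and Tet1 (chr10:62274947-62274975, minus strand). That of the miR-148 family is from Dnmt1 (chr9:20711925-20711953, minus strand).
Dnmt3a: cgacttcataaTGGTGCTttcaaaacagc
Tet3: gagctgctctgTGGTGCTtttgccctcat
Tet1: accatagagtcTGGTGCTttcccccgggt
Dnmt1: agagccccacgTGCACTGatgtttttaac
A seed match is a description of the letters, and pairing at these sites was not measured.

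The mRNA libraries held 41076780 to 60867747 counted reads and their TMM scaling factors ran from 0.967 to 1.04. Markers of striatal medium spiny neurons, the main neurons of the NAc, were present in every library at a summed level of 6200 to 7750 CPM (scaled counts-per-million values), with none of the 12 at 0, and none of them passed, in any of the 4 comparisons between groups, the thresholds that the study states (at least 1.3-fold, with p under 0.05 before adjustment), which were applied here to a new fit and are called the study's rule below. The punches also held varying amounts of neighbouring tissue. Of 11 markers of cortical glutamatergic neurons 10 were matched, none was at 0, and their sum was 156 to 190 CPM in NSM, 243 to 368 in SM, 190 to 539 in NSF and 220 to 309 in SF. Markers of blood summed to 16.9 to 21.1 CPM in NSM and 30.4 to 35.5 in SM. In tissue of this kind, fewer cells of a type and less RNA per cell cannot be told apart.

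Abundance spanned a wide range within the family. Levels between genes were compared per length, as CPM per kilobase of all annotated exons joined, over the 12 libraries. Dnmt1 was the highest at 13.6 ± 0.577 (SD) CPM per kilobase, and its lowest library lay above the highest of any other member. Dnmt3a followed at 8.34 ± 0.438, Uhrf2 at 7.53 ± 0.685, Tet3 at 7.5 ± 0.546, Tet2 at 6.46 ± 0.576 and Gadd45b at 4.5 ± 0.965, and from Dnmt3a to Gadd45b neighbours in this order overlapped. Gadd45b did not overlap Tet1, the next below it. Tet1 at 1.61 ± 0.0867, Uhrf1 at 0.587 ± 0.0992 and Dnmt3b at 0.108 ± 0.026 CPM per kilobase formed 3 lower steps that did not overlap. The order at the top depended on the length used. With the longest coding transcript in place of all exons, Uhrf2 came to 18.3, Dnmt3a to 14.3 and Dnmt1 to 13.6, and the order below them was the same. Under both lengths, Dnmt3a exceeded its relative Dnmt3b, and Uhrf2 exceeded its relative Uhrf1. Dnmt3b rested on 15 to 37 reads per library and Uhrf1 on 86 to 179, against 2290 to 4075 for Uhrf2 and 5053 to 9056 for Dnmt3a, so that changes in the first pair are known far less precisely.

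**Figure D1:**
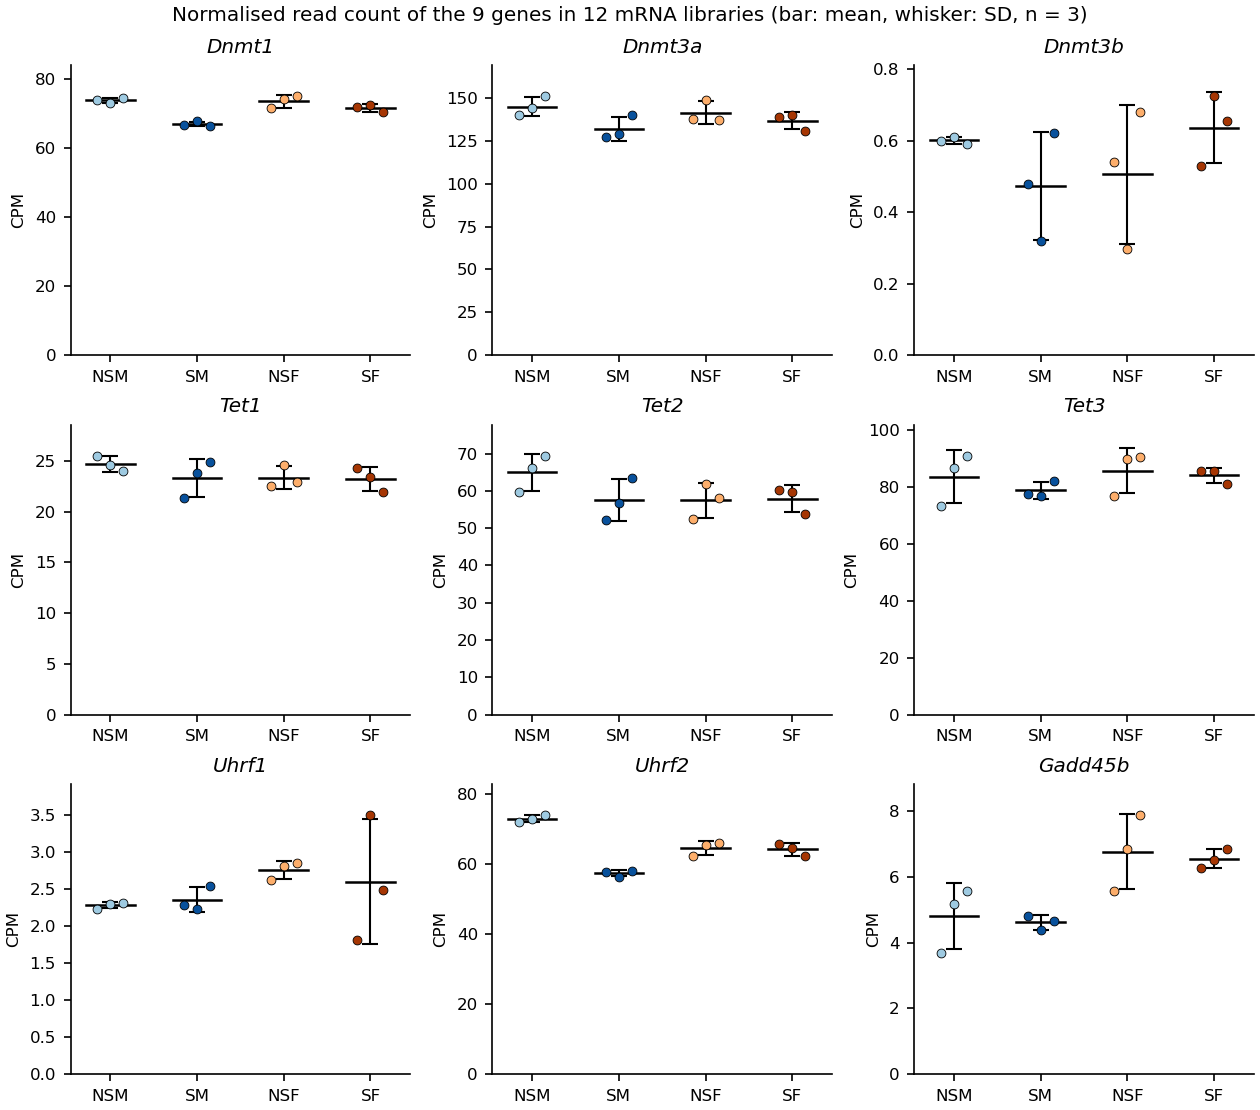
Normalised read count in CPM (vertical axis, from 0) of each of the 9 genes in the 12 mRNA libraries, by group (horizontal axis; NSM and SM, unstressed and stressed males; NSF and SF, unstressed and stressed females); points are libraries, the bar is the mean and the whisker the SD of 3. The 3 SM libraries of Uhrf2 sit between 56.3 and 57.9 CPM, below all 9 others, and both female groups of Gadd45b sit above both male groups.

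The first comparison asked which of these genes differed between stressed and unstressed males. Uhrf2 fell, and in the main limma-voom fit it was the one member whose change passed the adjusted threshold. Its level was 71.9, 72.7 and 73.8 CPM in the 3 NSM libraries and 57.6, 56.3 and 57.9 CPM in the 3 SM libraries. Each stressed library was therefore below each unstressed one by far more than the libraries of a group differed. The change was -0.35 on the log2 scale (SE 0.0425, 95% interval -0.44 to -0.26), a level 0.786 times that of NSM, with an unadjusted p of 1.25e-06 and an adjusted p of 0.00372 in limma-voom, the rank of 5 by p among all tested genes. The adjusted p stayed between 0.00304 and 0.0266 when each of the 12 libraries was left out in turn. By this adjusted threshold 3.32% of all tested genes were called in males.

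The fold threshold of the study's rule is 0.379 on the log2 scale. Applied to the limma-voom fit made here, which need not return the study's own list of genes, the rule called 0 of the 9 members in males, against 6.44% of all tested genes. EdgeR and DESeq2 with the same thresholds also gave 0. Uhrf2 stopped just short of the fold threshold. With library size alone as the scaling its change was -0.40 and it passed. At an unadjusted p under 0.05 without the fold threshold, 4 of the 9 members passed, all lower in SM (Uhrf2, Dnmt1, Dnmt3a and Tet2), where 21.5% of all tested genes passed in either direction.

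Dnmt1, the maintenance enzyme, was measured very evenly. Its 3 NSM libraries gave 74, 73.2 and 74.6 CPM and its 3 SM libraries 66.9, 67.8 and 66.5 CPM. The groups did not overlap, and the difference was small, -0.14 on the log2 scale (SE 0.0397), with an adjusted p of 0.0739. The adjusted p of Dnmt1 was under 0.05 in 2 of 14 other settings of the processing. It was so in 0 of the 12 fits that left out a library. Dnmt3a, the main enzyme of new methylation in neurons, gave 140, 144 and 151 CPM in NSM and 127, 129 and 140 CPM in SM. Its highest stressed library lay level with its lowest unstressed one, and the difference was -0.13 (SE 0.0534, adjusted p = 0.17).

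Among the TET enzymes, Tet2 gave 59.6, 66.1 and 69.4 CPM in NSM and 52.2, 56.7 and 63.4 CPM in SM. The groups overlapped, and the difference was -0.18 (SE 0.0823, adjusted p = 0.226). Tet1 and Tet3 differed by -0.08 each, with adjusted p of 0.495 and 0.581. The remaining readers and partners showed no difference that passed: Uhrf1 differed by 0.05 (SE 0.185) and Gadd45b by -0.03 (SE 0.158). Dnmt3b had the largest fitted difference of all 9, -0.39, but also the largest error (SE 0.305, adjusted p = 0.481).

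Of the 9 fitted differences in males 8 were negative and their median was -0.13 on the log2 scale, against -0.01 over all tested genes, of which 52.7% were negative. Only Uhrf2 and Dnmt1 had groups that did not overlap, 2 of 9 where 23% of all tested genes had such groups, so that this count stood near the background. For 6 of the 9, Dnmt1, Dnmt3a, Tet1, Tet2, Tet3 and Gadd45b, the 95% interval in males lay inside a 1.3-fold change in both directions. For the low-count genes Dnmt3b and Uhrf1 it reached past a 1.3-fold change, so that a change of that size was not excluded by these libraries. The interval of Uhrf2, -0.44 to -0.26, also reached past it.

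Other values moved with the same split of the male libraries. The SM libraries held fewer reads (41076780 to 48592005, against 48872076 to 55929512 in NSM). The marker sums for cortical neurons and blood given above did not overlap between the male groups, with 2 of 10 and 3 of 3 markers higher in SM by the study's rule. The sum of 10 immediate early genes, markers of recent activity, was 463 to 609 CPM in NSM and 371 to 447 in SM, with 5 of 10 lower. The sum of 7 glucocorticoid targets, the receptor gene Nr3c1 counted among them, was 432 to 459 in NSM and 421 to 433 in SM. These ranges overlapped slightly, and 3 of 7 were lower. Sgk1 on that list went the other way, by 0.26 (unadjusted p = 0.00722, adjusted p = 0.098 in limma-voom), short of the study's rule. Fkbp5 and Nr3c1 differed by 0.05 and 0.02. Oligodendrocyte markers (4270 to 4780 CPM in NSM, 5160 to 5200 in SM) and microglial markers (205 to 225 and 232 to 259 CPM) did not overlap, with 0 of 5 and 2 of 5 higher by the study's rule. By an adjusted p under 0.05 in limma-voom, the threshold that Uhrf2 passed, 2 of 5 were called in each of these lists. Astrocyte markers (1030 to 1120 and 982 to 1070 CPM, 0 of 5 called), endothelial markers (122 to 129 and 124 to 141 CPM, 1 of 4 lower) and markers of dividing and precursor cells (213 to 219 and 190 to 214 CPM, 0 of 9 called) overlapped. The same adjusted threshold was passed by 3 of 3 blood, 2 of 10 immediate early, 3 of 7 glucocorticoid and 1 of 4 endothelial markers. It was passed by 0 of 10 cortical, 0 of 5 astrocyte and 0 of 9 dividing and precursor markers. With the mean log2 level of the cortical markers as a covariate, Uhrf2 in males was -0.33 and its adjusted p 0.0524. The part of the other markers in the result was not tested.

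**Figure D2:**
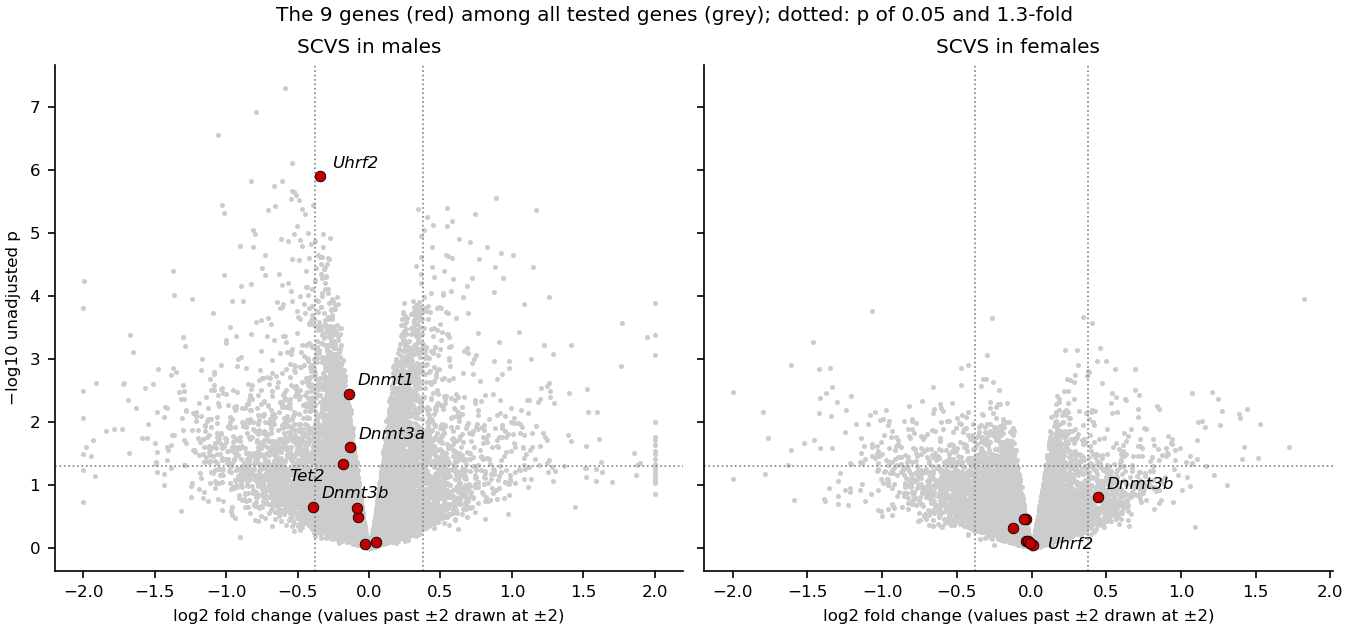
Unadjusted p on a -log10 scale (vertical axis) against log2 fold change (horizontal axis, values past 2 drawn at 2) for all tested genes (grey) and the 9 members (red) in males, left, and females, right; dotted lines mark a p of 0.05 and a 1.3-fold change. Uhrf2 stands near the top in males at -0.35 and near 0 in females, where no member passes a p of 0.05.

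In females the same stress gave no member past any threshold. By the study's rule 0 of the 9 were called, where 1.73% of all tested genes were, and 0 had an adjusted p under 0.05, where 0% of all genes did. At an unadjusted p under 0.05 the count was also 0, where 4.23% of all genes passed, and edgeR and DESeq2 with the study's rule gave 0. Uhrf2 gave 62.3, 65.3 and 66 CPM in NSF and 65.6, 64.6 and 62.1 CPM in SF, groups that covered the same range. Its difference was -0.01 on the log2 scale with a 95% interval from -0.10 to 0.08, an interval that does not reach the change measured in males. Dnmt1 differed by -0.04 (SE 0.0396), Dnmt3a by -0.05 (SE 0.0534), Tet1 by -0.01, Tet2 by 0.01 and Tet3 by -0.02. The intervals of 7 of the 9 lay inside a 1.3-fold change, the exceptions being Dnmt3b and Uhrf1.

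Dnmt3b again had the largest fitted value, 0.44 (SE 0.296, adjusted p = 0.948), from 0.541, 0.297 and 0.68 CPM in NSF to 0.53, 0.724 and 0.655 CPM in SF. The second NSF library alone was low, and the other 5 female libraries overlapped. Without NSF 3 the fitted value was 0.70 and passed the study's rule, the one library whose removal gave a call in females. Uhrf1 in SF ran from 1.82 to 3.5 CPM and was the most uneven of its 4 groups. No member had groups that did not overlap in females, where 11.3% of all tested genes did.

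Whether the response differed between the sexes was tested as an interaction, the change in females minus the change in males. Uhrf2 had the smallest p of the 9, with a value of 0.34 on the log2 scale (SE 0.06, 95% interval 0.21 to 0.47), with an unadjusted p of 6.75e-05, the rank of 12 among all tested genes, and an adjusted p of 0.105. By adjusted p the call was thus not made, and 0.0269% of all tested genes were called. The adjusted p of Uhrf2 was 0.00152 with DESeq2, 0.108 with edgeR, and 0.861 with the cortical covariate. By the study's rule 0 of the 9 were called, against 4.42% of all genes, and no member other than Uhrf2 had an unadjusted p under 0.05, where 9.55% of all genes had one. Dnmt3b had a fitted value of 0.83 (SE 0.425, adjusted p = 0.57), Dnmt1 of 0.10 (adjusted p = 0.616) and Tet2 of 0.19 (adjusted p = 0.658). The count of members called by the study's rule became 1 without SM 3 (Dnmt3b, 1.07), without NSF 3 (Dnmt3b, 1.08) or without SF 2 (Uhrf1, -0.42), and the adjusted p of Uhrf2 ran from 0.0239 (without NSF 2) to 0.341 when single libraries were left out. The intervals of 4 of the 9 lay inside a 1.3-fold difference, and those of Dnmt3b, Tet2, Uhrf1, Uhrf2 and Gadd45b reached past it. Averaged over both sexes, Uhrf2 was lower after SCVS by -0.18 (SE 0.03, adjusted p = 0.0274), the one member of 9 with an adjusted p under 0.05 where 0.5% of all genes had one, and by the study's rule 0 members and 3.38% of all genes were called. That adjusted p rose above 0.05 when any of 7 libraries was left out, NSM 2, NSM 3, SM 1, SM 2, NSF 3, SF 2 or SF 3, with values from 0.0523 to 0.114.

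**Figure D3:**
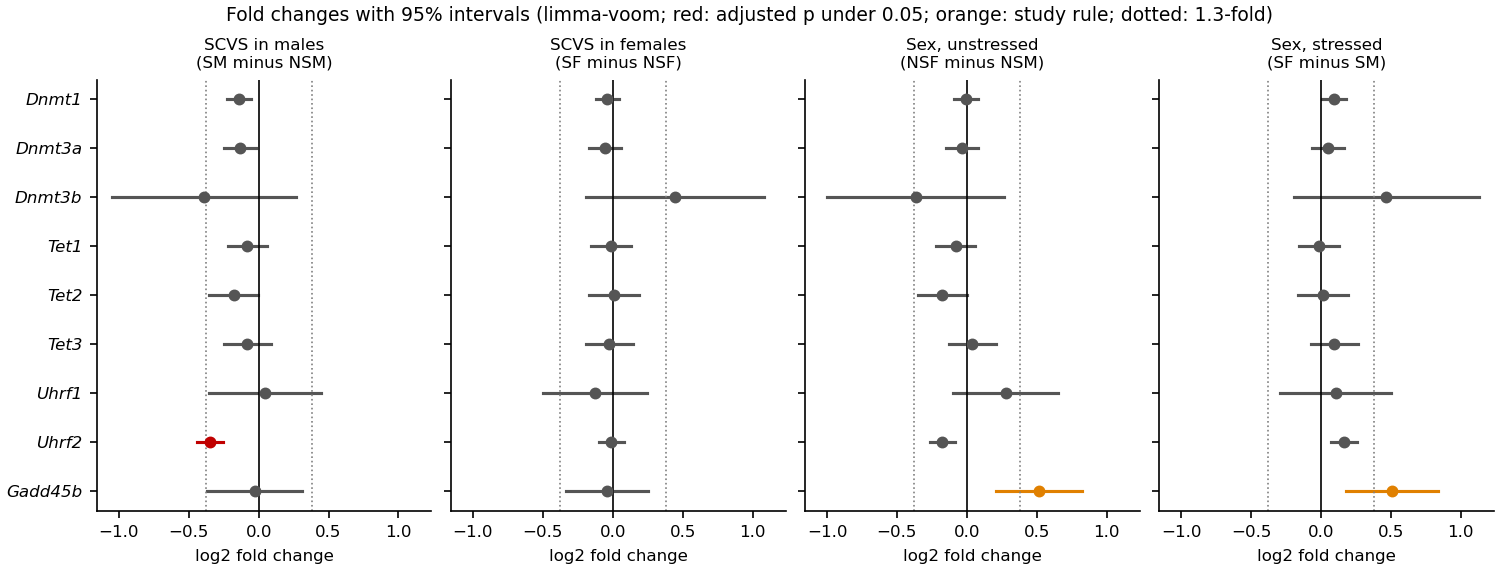
Log2 fold change (horizontal axis) of each member (rows) with its 95% interval from limma-voom in 4 comparisons, with the group subtracted named over each panel; red marks an adjusted p under 0.05, orange the study's rule, and dotted lines a 1.3-fold change. Uhrf2 is red in males at -0.35 and lies at -0.01 in females, and Gadd45b is orange in both sex comparisons at 0.52 and 0.51.

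The sexes were then compared within each stress condition. Gadd45b was higher in females in both, and it was the one member called by the study's rule in either. In unstressed mice the NSM libraries gave 3.69, 5.18 and 5.58 CPM and the NSF libraries 5.59, 6.86 and 7.88 CPM. All 3 female libraries lay above the male ones, though the lowest female and the highest male library nearly met. The difference was 0.52 on the log2 scale (SE 0.144), or 1.43-fold, with an unadjusted p of 0.00302 and an adjusted p of 0.128. The first NSM library was the lowest of the 12. Without it the difference was 0.32 (adjusted p = 0.4), below the fold threshold, and the call was lost. In stressed mice the SM libraries gave 4.81, 4.38 and 4.67 CPM and the SF libraries 6.29, 6.53 and 6.86 CPM. The gap was wider than either group's spread, with a difference of 0.51 (SE 0.152), or 1.42-fold, an unadjusted p of 0.00502 and an adjusted p of 0.123, and the study's call was kept whichever of the 12 libraries was left out. SCVS did not move the gene detectably in either sex, by -0.03 (95% interval -0.37 to 0.31) in males and -0.04 (-0.33 to 0.25) in females.

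The background in these comparisons was 5.31% of all tested genes by the study's rule and 0.285% by adjusted p in unstressed mice, and 5.55% and 0.145% in stressed mice. One of 9 members was called by the study's rule in each and 0 by adjusted p. With DESeq2, the adjusted p of Gadd45b was 0.0474 in unstressed and 0.042 in stressed mice, and that of Uhrf2 was 0.0125 and 0.0557. Of 14 settings other than the main fit, DESeq2 among them, some gave an adjusted p under 0.05. For Gadd45b these were 2 in unstressed and 4 in stressed mice, and for Uhrf2 2 and 1. Markers of septum, hypothalamus and neighbouring nuclei split the sexes in the same way. Of 9 on that list 8 were matched and 4 tested, their sum was 53.5 to 62.8 CPM in NSM, 68.5 to 91 in NSF, 51.2 to 58 in SM and 61.5 to 102 in SF, 2 of the 4 were higher in females in each condition, and 3 of the 8 were at 0 in at least 1 library. Of the activity genes 2 of 10 were higher in females in each condition, of the blood markers 2 of 3 were higher in unstressed and 2 of 3 lower in stressed females, and of the cortical markers 6 of 10 were higher in unstressed females and 1 in stressed ones. Of the 7 glucocorticoid targets 0 were called in unstressed mice and 2 were higher in stressed females, where their sum was 465 to 524 CPM against 421 to 433 in SM, without overlap. The part of these markers in the differences between the sexes was not tested.

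Uhrf2 changed sides between the conditions. In unstressed mice it was lower in females than in males by -0.17 (SE 0.0421, unadjusted p = 0.00102, adjusted p = 0.103), and in stressed mice it was higher in females by 0.16 (SE 0.0427, unadjusted p = 0.00199, adjusted p = 0.101). In both conditions the 3 female libraries did not overlap the 3 male ones. All 6 female libraries, at 62.1 to 66 CPM, lay between the stressed and the unstressed males. Dnmt1 showed no sex difference in unstressed mice (-0.01, SE 0.0395) and was higher in females by 0.10 (SE 0.0398, adjusted p = 0.249) in stressed mice, again with groups that did not overlap. Tet2 was lower in unstressed females by -0.18 (SE 0.0819, adjusted p = 0.322). Uhrf1 gave 2.24, 2.3 and 2.31 CPM in NSM and 2.62, 2.82 and 2.85 CPM in NSF, groups that did not overlap, with a difference of 0.28 (SE 0.175, adjusted p = 0.473). Groups did not overlap for 3 of 9 members in each condition, where 19.5% of all tested genes in unstressed and 20.4% in stressed mice had such groups. These 4 comparisons share their groups in pairs, so they are not independent of each other.

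**Figure D4:**
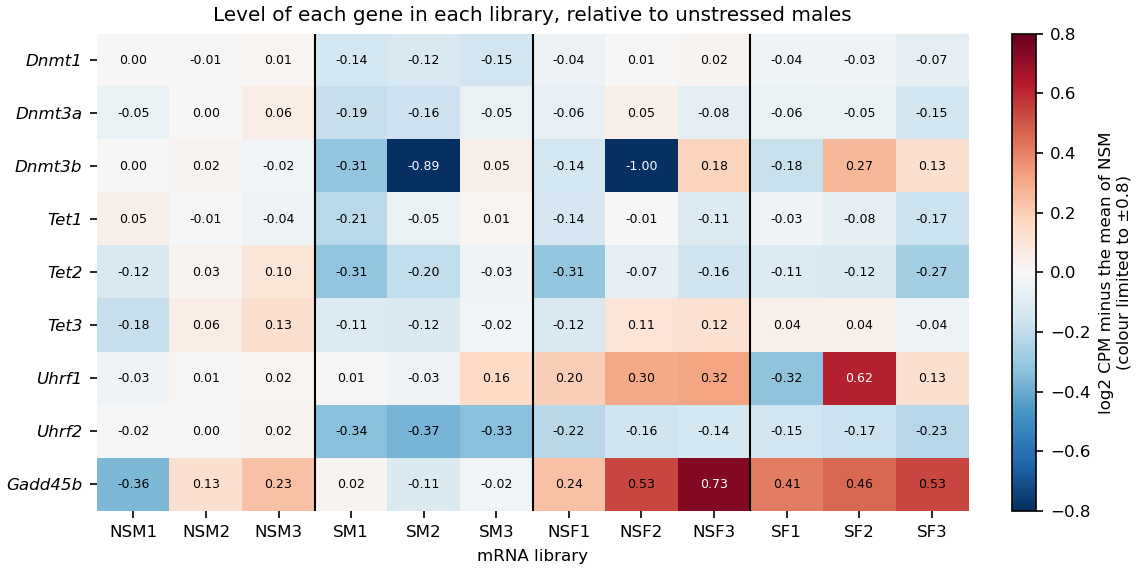
Log2 CPM of each member (rows) in each mRNA library (columns) minus its mean in the 3 unstressed male libraries; the number in each cell is that difference, red is higher and blue lower, with the colour limited to 0.8 either way. The Uhrf2 row reads between -0.33 and -0.37 in the 3 stressed male libraries and between -0.14 and -0.23 in the 6 female ones, and the Dnmt3b row is uneven within groups.

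Pairs of members varied together to unlike degrees. With each library taken as a deviation from its group mean, Pearson's r over the 12 libraries was 0.893 for Dnmt3a with Tet2, 0.88 for Tet3 with Gadd45b, 0.838 for Tet2 with Tet3 and 0.715 for Uhrf2 with Dnmt1. It was 0.00691 for Uhrf1 with Uhrf2 and -0.202 for Dnmt3a with Dnmt3b, while the 3 TET genes ran from 0.18 (Tet1 with Tet3) to the 0.838 above. Uhrf1 and Dnmt3b had the fewest reads, and the part of counting error in their r was not tested. Among Dnmt1, Dnmt3a, Uhrf2 and the 3 TET genes every pair was positive, from 0.18 to 0.893. For Tet1 with Gadd45b it was -0.253. These values are descriptions. The libraries share a scaling factor and, within a library, the same dissection.

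For the 2 members called in any comparison, the genes with the most similar pattern over the 12 libraries were found among 13110 other genes with a mean of at least 100 reads. Those for Uhrf2 were Hectd2 (r = 0.979), Vcl (0.96) and Slc25a42 (0.959), and those for Gadd45b were Zbtb45 (0.973), Srebf2 (0.972) and Pik3r2 (0.964). Here the differences between groups were left in, unlike in the r values before, and the highest of 13110 were picked. They are descriptions, and shared regulation was not tested.

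Beyond the 9, the wider machinery was examined as 49 genes in 5 lists, of which 47 passed the filter and were tested. In males 0 of the 47 rose and 2 fell by the study's rule, and none had an adjusted p under 0.05, where the shares of all tested genes were the 6.44% and 3.32% given above. The 2 were Gadd45g and Zfp57. Gadd45g, a relative of Gadd45b, gave 5.65, 7.93 and 9.78 CPM in NSM and 4.68, 3.78 and 4.36 CPM in SM. The groups did not overlap, with a difference of -0.83 (SE 0.23, adjusted p = 0.0683), while Gadd45b itself differed by -0.03. Zfp57, which holds methylation at imprinted regions, gave 5.58, 5.22 and 9.01 CPM in NSM and 2.62, 4.98 and 4.79 CPM in SM, a difference of -0.66 (SE 0.225, adjusted p = 0.12).

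In females 0 of the 47 were called in either direction. Gadd45g also had an interaction of 0.71 (SE 0.298, unadjusted p = 0.0327, adjusted p = 0.476) and was higher in stressed females than in stressed males by 0.99 (SE 0.229, adjusted p = 0.0884). Averaged over both sexes the same 2 genes fell by the study's rule, Gadd45g by -0.47 and Zfp57 by -0.54. In unstressed mice Cxxc5, a protein with a CXXC zinc finger, was the 1 gene called. The NSM libraries gave 16.2, 20.4 and 20.2 CPM and the NSF libraries 27.5, 24.6 and 32.1 CPM, a difference of 0.56 (SE 0.128, adjusted p = 0.0895). Of the 47, the study's rule thus called 0 in females, 1 in the interaction, 2 averaged and 1 in each sex comparison. The shares of all tested genes were 1.73% in females, 4.42% in the interaction and 3.38% averaged. They were 5.31% between unstressed and 5.55% between stressed sexes.

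By list, the median change in males was -0.02 for the 10 tested cofactors and partners, -0.02 for the 10 proteins that bind 5-methylcytosine, -0.10 for the 10 tested genes of excision repair and deamination, -0.01 for the 4 GADD45 relatives and partners and -0.04 for the 13 genes of methyl donor supply, against -0.01 over all genes. No list other than those of Gadd45g and Zfp57 held a gene called in males. At an unadjusted p under 0.05 alone, 5 of the 47 were higher and 8 lower in males, beside 21.5% of all tested genes in either direction, and in females 0 were higher and 1, the glycosylase Smug1, lower, beside 4.23%.

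The last comparison took the miRs printed above. The small RNA libraries held 5086554 to 13522287 counted reads. In this table the rows bear precursor names, so that the arms of a precursor cannot be told apart, and 500 of 1180 were tested. Rows of mir-29b-1 and mir-29b-2 share the same mature form, so their reads cannot be assigned to one or the other with certainty. None of the 7 precursors was called in either sex by the study's rule with limma-voom or edgeR, where 5.2% of all tested miRs were called in males and 4.8% in females. At an unadjusted p under 0.05 the count was 1 of 7 in each sex, mir-148a in both, where 12.4% of all tested miRs passed in males and 8% in females.

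In females, mir-148a gave 7810, 8520 and 7830 CPM in NSF and 6300, 6430 and 7140 CPM in SF. The groups did not overlap, with a difference of -0.28 on the log2 scale (SE 0.0814, unadjusted p = 0.00358, adjusted p = 0.344), short of 1.3-fold. In males it gave 6850, 7610 and 6870 CPM in NSM and 5680, 6870 and 6330 CPM in SM, a difference of -0.18 (SE 0.0816, adjusted p = 0.379). The interaction was -0.10 (adjusted p = 0.808). The fitted changes of Dnmt1 mRNA, whose site for this family is shown above, were -0.14 in males and -0.04 in females.

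For miR-29, the level of mir-29a was 8450 ± 258 CPM in NSM and 8870 ± 787 in SM, and 8500 ± 351 in NSF and 8410 ± 432 in SF (SD, n = 3 each). Its difference was 0.07 (95% interval -0.09 to 0.22) in males and -0.02 (-0.17 to 0.14) in females. The differences of mir-29b-1, mir-29b-2 and mir-29c in males were -0.18, -0.16 and 0.08, and the smallest adjusted p of these was 0.489. The 5 members with a match to their seed, Dnmt3a, Dnmt3b and the 3 Tet genes, had fitted values in males from -0.39 to -0.08, none with an adjusted p under 0.05.

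**Figure D5:**
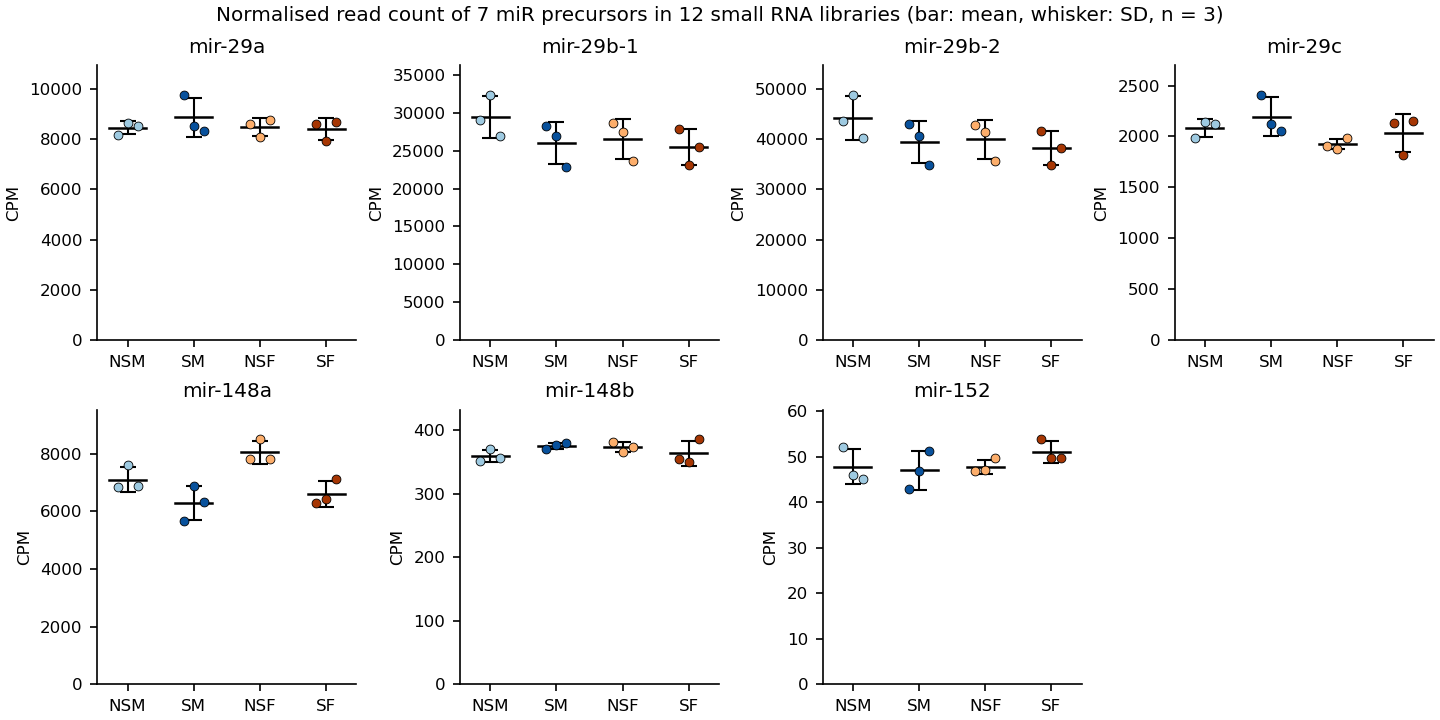
Normalised read count in CPM (vertical axis, from 0) of 7 miR precursors in the 12 small RNA libraries, by group (horizontal axis); points are libraries, the bar is the mean and the whisker the SD of 3. The 3 SF libraries of mir-148a, at 6300 to 7140 CPM, sit below the 3 NSF libraries at 7810 to 8520, and the other precursors overlap between the female groups.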

How the data were processed

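The authors prepared mRNA libraries with a kit that does not mark strand, aligned the reads with TopHat2 to NCBIM37 (Ensembl release 67) and deposited raw HTSeq counts per gene. Small RNA reads of at least 16 bases were aligned with Bowtie to mm9 and deposited as counts per miRBase entry. The 12 libraries of an assay were sequenced together, on 3 lanes (mRNA) or 1 lane (small RNA), and no column was left unmapped (0). Here, genes were kept where, in any group, 80% or more of its libraries held over 5 reads, and were scaled by TMM (edgeR 4.0.16) and fitted with limma-voom (limma 3.58.1, R 4.3.3), with 1 mean per group over all 12 libraries and Benjamini-Hochberg adjustment over all tested genes. The procedure was tested on simulated data. DESeq2 1.42.0 and edgeR's quasi-likelihood test were alternatives. P-values measure the spread between pools. The members and lists were chosen by name, with earlier results of these data known. All 9 members are named, other machinery genes where called, and the 3 most similar genes for called members. Exon lengths and 3′ regions came from an NCBIM37 annotation (Ensembl release 65).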

Additional observations from a re-analysis of the deposited data

Results flagged for a closer look

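The difference of Uhrf2 between the SCVS effects in females and in males was singled out because it was tested directly, as an interaction, and had a value of 0.3372 on the log2 scale (SE 0.06, unadjusted p = 6.75e-05, adjusted p = 0.105 in limma-voom). The level was lower in all 3 SM libraries than in all 3 NSM libraries, and the SF and NSF libraries overlapped. Cortical marker sums also differed between the male groups, and with those markers as a covariate the value was 0.31 with an adjusted p of 0.861. An adjusted p depends on the p-values of all tested genes in its fit, and the SE and unadjusted p with the covariate are not given here.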

How the results depend on the processing

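Uhrf2 in males kept its direction in all 14 other settings and all 12 fits that left out a library (-0.3506 to -0.3287), and its adjusted p was above 0.05 in 1 of them, that with the cortical covariate (0.0524). Dnmt3b (15 to 37 reads) and Uhrf1 (86 to 179 reads) had the lowest counts and the widest intervals, and the shares of counting error and of spread between pools in them were not separated.

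The number of members called changed as follows. With library size only it was 1 in males. By adjusted p alone it was 1 in males, 1 averaged over sexes and 0 in each sex comparison. By unadjusted p alone it was 4 in males, 3 averaged, 1 for the interaction and 3 in each sex comparison. Of the 18593 tested genes, 3992 passed in males, 3480 averaged and 1775 for the interaction. Between unstressed sexes 2859 passed, and between stressed sexes 3058. With quality weights it was 1 for the interaction and 2 between stressed sexes. With the cortical covariate it was 1 in males, 1 for the interaction and 2 in each sex comparison. The additional member with quality weights or the cortical covariate was Dnmt3b. For library size only, quality weights and the cortical covariate, no share over all genes is given beside these counts. Leaving out single libraries gave 0 to 1 in females, for the interaction and between unstressed sexes. The causes were not tested.

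Fitted values changed sign 68 times, 46 of them on leaving out a library, none past the call threshold, and the largest size after a change was 0.189. Not all were near 0 in the main fit. Dnmt3b between unstressed sexes was -0.3674 and became 0.02076 without NSF 2. Uhrf1 in the interaction was -0.1727 and became 0.05787 without SF 1. Gadd45b in the interaction became 0.009489 (edgeR), 0.004567 (DESeq2), 0.02221 (library size only), 0.01261 (quantile), 0.03772 (quality weights), 0.01345 (replicate block) and 0.01848 (cortical covariate). Tet2 between stressed sexes became -0.003509 (DESeq2), -0.001711 (DESeq2 size factors), -0.01012 (quantile) and -0.001837 (filterByExpr). Dnmt3b averaged became -0.009461 (library size), -0.03608 (quality weights) and -0.1894 (cortical covariate). With library size, Uhrf1 in males became -0.005058, Tet2 in females -0.009488 and Tet1 between stressed sexes 0.0004094 (0.01614 with quality weights). Tet1 in females became 0.0008637 (quantile). With the cortical covariate, Tet2 in females became -0.001834, and Dnmt1 and Dnmt3a between unstressed sexes 0.001751 and 0.0142.

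Ranges on leaving out single libraries, for values that changed sign, were as follows. In males Uhrf1 ran from -0.007557 to 0.09321 and Gadd45b from -0.2136 to 0.09547. In females Tet1 ran from -0.04672 to 0.02969, Tet2 from -0.04903 to 0.06562, Tet3 from -0.09621 to 0.01808, Uhrf1 from -0.3701 to 0.1045, Uhrf2 from -0.02833 to 0.01202 and Gadd45b from -0.151 to 0.06562. Averaged, Dnmt3b ran from -0.168 to 0.1631, Uhrf1 from -0.1581 to 0.07557 and Gadd45b from -0.1234 to 0.02929. For the interaction Tet3 ran from -0.02465 to 0.146, Uhrf1 from -0.424 to 0.05787 and Gadd45b from -0.1324 to 0.1804. Between unstressed sexes Dnmt1 ran from -0.02406 to 0.005154, Dnmt3b from -0.6245 to 0.02076 and Tet3 from -0.06186 to 0.1064. Between stressed sexes Tet1 ran from -0.08197 to 0.02786, Tet2 from -0.061 to 0.07874 and Uhrf1 from -0.1563 to 0.3352.

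Same-numbered libraries of a sex correlated at 0.000725 to 0.316 in their deviations from group means, not over 0.1 in every pair, so the main fit used no pairing. No such r was computed between the sexes, and whether the numbers mark a shared batch was not tested. The replicate block changed no count of members called and left Uhrf2 in males at -0.3467 (adjusted p = 0.00333). Over all genes, calls ranged from 618 by adjusted p to 3992 by unadjusted p in males (1198 by the study's rule), 0 to 865 in females (322, the upper with a filter of 1 read), 93 to 3480 averaged (628), 5 to 1775 for the interaction (822), 53 to 2859 between unstressed sexes (988) and 27 to 3058 between stressed sexes (1031).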
